A study of Mus musculus with 20 samples.

Results

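RNA of the cerebral cortex was compared between mice that had received YB-1 and mice that had received HSP70, with 5 libraries in each group. These 10 cortical libraries, picked by their tissue label, are part of a series of 20; the other 10 are from the hippocampus and serve here only to set cortical values beside those of a second tissue. All animals were NMRI mice, an outbred stock, and all had undergone olfactory bulbectomy, the surgical removal of the olfactory bulbs, which is used to model features of sporadic Alzheimer's disease. The HSP70 group was given 4 µg of human recombinant HSP70 and the YB-1 group 6.4 µg of recombinant YB-1, through the nose and once daily for 21 days from day 14 after surgery. Animals without surgery, or operated animals given vehicle, were not analysed here. Each value is therefore YB-1 relative to HSP70, and a higher level with YB-1 is equally a lower level with HSP70. The labels give no age or sex and do not name the animal behind a library, so p-values measure the spread between these libraries.

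HSP70 is a chaperone that binds unfolded stretches of proteins and is induced by heat and other stress; its extracellular form can also act on immune cells. YB-1 is a protein with a cold shock domain that binds RNA and DNA and takes part in translation, messenger RNA packaging and the response to stress. The cortex that receives them is a mixture. Excitatory neurons make up most of its nerve cells, and inhibitory interneurons, which use GABA, divide into classes marked by parvalbumin, somatostatin, vasoactive intestinal peptide or Lamp5. Microglia are the resident phagocytes, and astrocytes take up transmitters and respond to injury by raising intermediate filaments and secreted inhibitors. In tissue of this kind fewer cells of a type and less RNA per cell cannot be told apart.

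The cortical treatments differed in the libraries themselves. The HSP70 libraries held 12283392 to 15148078 reads assigned to genes and the YB-1 libraries 6414215 to 10763465, so every HSP70 library was deeper. Reads outside annotated genes made up 3.39% to 4.58% of an HSP70 library and 2.45% to 3.31% of a YB-1 library, again with no overlap. Genes with at least 1 read numbered 19176 to 20712 with HSP70 and 17504 to 19733 with YB-1. Bc1, a short neuronal noncoding RNA, took 6.03% to 17.9% of assigned reads with HSP70 and 4.74% to 15.5% with YB-1. A difference in preparation or sequencing therefore cannot be told apart from the treatment. Markers of the cortex were present in all libraries: the mean log2 CPM (counts scaled to the library total) of 15 upper-layer genes was 5.07 to 5.37 with HSP70 and 5.03 to 5.30 with YB-1, and that of 17 deep-layer genes 4.59 to 4.83 and 4.60 to 4.82. Replicate 4 of the YB-1 group, the shallowest library, stood apart in markers of the striatum, the structure beneath the cortex, with a mean of 4.33 log2 CPM, against 2.82 to 3.13 in the other YB-1 libraries and 2.76 to 3.04 with HSP70.

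**Figure D1:**
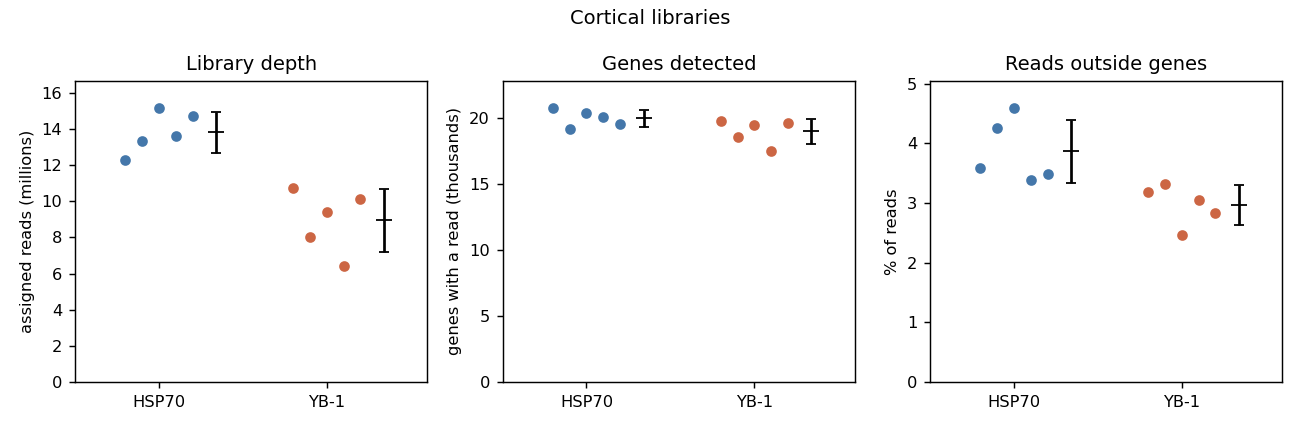
Reads assigned to genes, genes with at least 1 read and reads outside genes (% of reads) in the 10 cortical libraries; points are libraries in order of replicate number, and the bar beside them is the mean with its SD. Depth runs from 12283392 to 15148078 reads with HSP70 and from 6414215 to 10763465 with YB-1, and in the right panel the groups likewise do not overlap.

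After correction for the number of genes few or none differed between the treatments, depending on the tool and filter. edgeR's quasi-likelihood test placed 0 of 14114 cortical genes (0%) under an adjusted p of 0.05, and the smallest adjusted p was 0.25. Before adjustment 774 genes had a p under 0.05, of which 426 (3.02% of the genes tested) were higher and 348 (2.47%) lower with YB-1. With DESeq2 4 genes passed, Vip lower and Gpnmb, Il1rn and Igkv12-38 higher with YB-1, and 844 had an unadjusted p under 0.05. In limma-voom (with quality weights) Il1rn and Igkv12-38 passed, and 974 genes had an unadjusted p under 0.05. Without a filter on low counts edgeR called 9 of 27039 genes, 6 higher and 3 lower: those 4, Hcar2, Tnfaip2, Vwf, Cox5a and Ubl3. When all 10 libraries were thinned at random to 6414215 reads, edgeR again called 0, and 699 of 13045 genes had an unadjusted p under 0.05. The 5 values with YB-1 all lay above the 5 with HSP70 for 40 genes (0.283%) and all below them for 79 (0.56%). Log2 fold changes were positive for 50.9% of genes, and their median was 0.0050. The values below are therefore descriptions of single genes and gene lists against these shares; the log2 fold change is always YB-1 minus HSP70 and stands with its standard error.

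**Figure D2:**
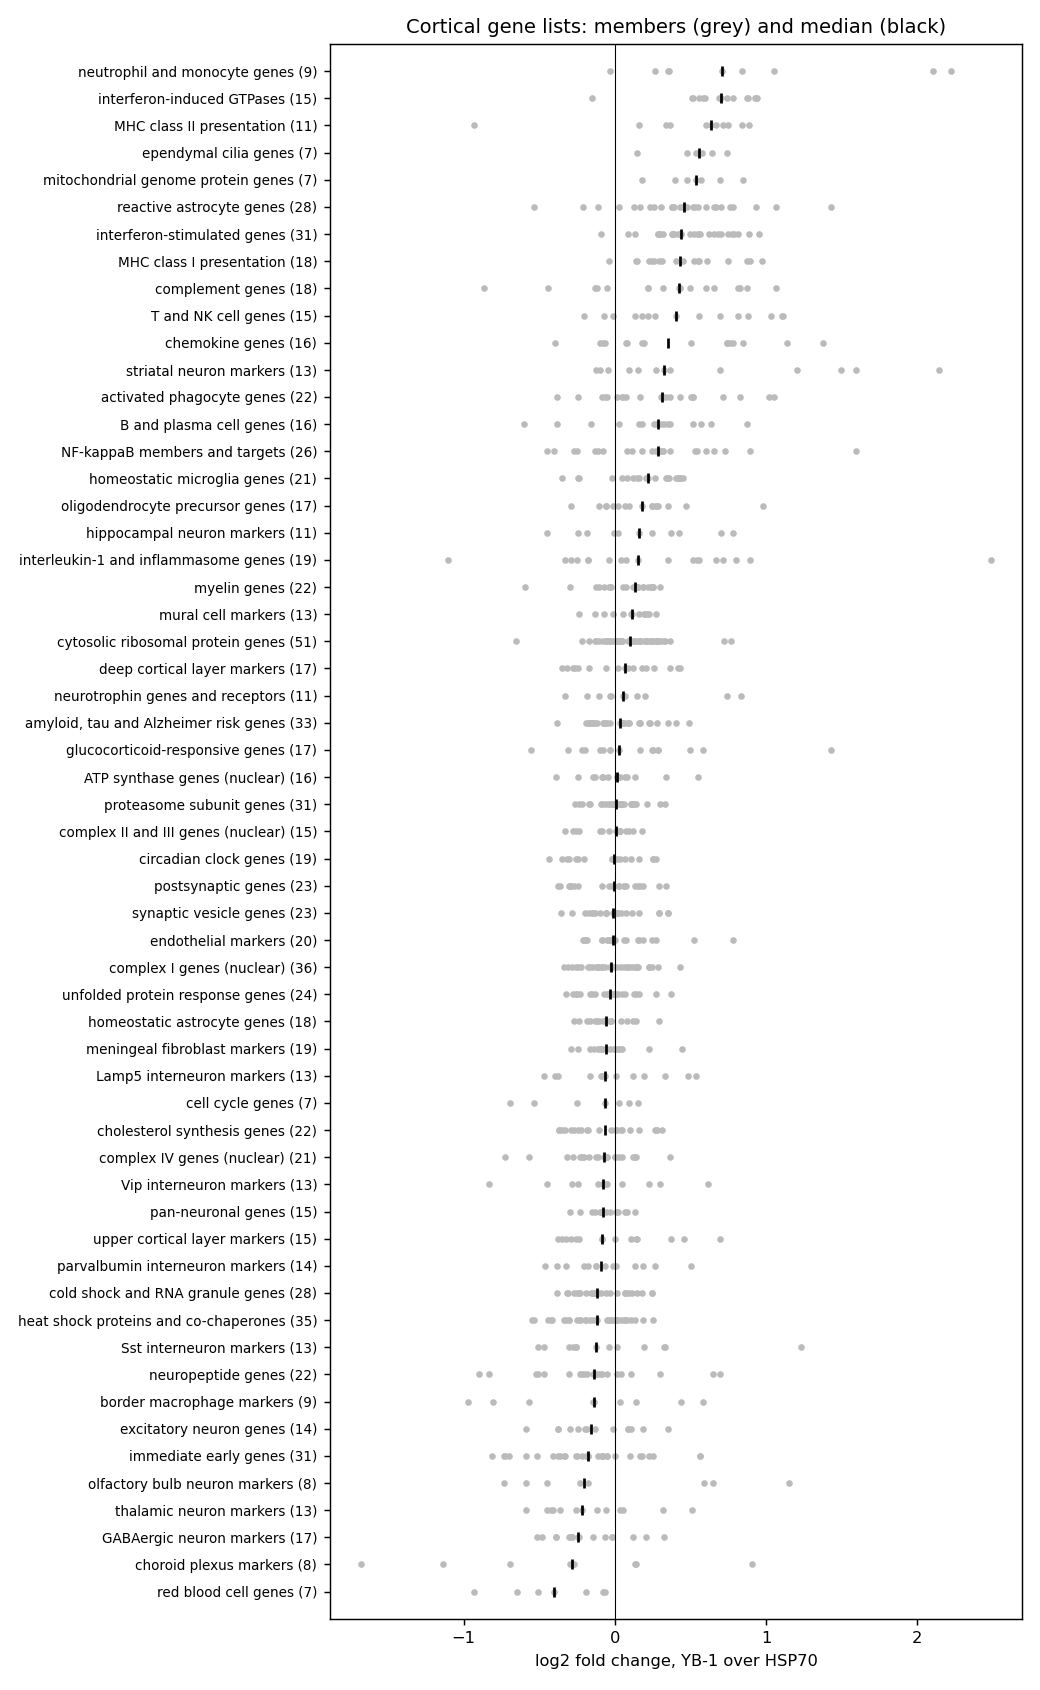
Log2 fold change of YB-1 over HSP70 in the cortex for every tested member of 57 gene lists, ordered by the list's median; grey points are genes, black ticks are medians, and the number of tested members follows each name. Medians run from -0.40 for red blood cell genes to 0.71 for genes of neutrophils and monocytes, beside 0.0050 for all genes.

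Among neuronal genes the interneuron peptide genes Vip and Sst were lower in every YB-1 library. Vip (ENSMUSG00000019772) encodes vasoactive intestinal peptide, made in the cortex by interneurons that mainly inhibit other interneurons. Its level was 31.05, 21.8, 29.03, 18.5 and 22.1 CPM in HSP70 replicates 1 to 5 and 15.7, 13.6, 14.6, 12.7 and 12.001 CPM in YB-1 replicates 1 to 5. Every YB-1 library lay below every HSP70 library, at 13.7 ± 1.48 against 24.5 ± 5.30 CPM (mean ± SD, n = 5). The log2 fold change was -0.83 ± 0.18 (95% confidence interval -1.20 to -0.46), with an adjusted p of 0.597 in edgeR's quasi-likelihood test and 0.0254 in DESeq2, and it was -0.87 at equal depth. Leaving out any 1 library kept it between -0.92 and -0.74. Sst, the gene of somatostatin, the peptide of interneurons that contact the dendrites of excitatory cells, was at 246, 285, 376, 254 and 258 CPM with HSP70 and 172, 166, 221, 197 and 239.6 CPM with YB-1. These groups too did not overlap, with a log2 fold change of -0.51 ± 0.15 (adjusted p 0.858). Calb2, which encodes the calcium-binding protein calretinin found in many Vip cells, was at 20.7, 24.3, 24.8, 23.3 and 20.2 CPM with HSP70 and 14.1, 16.9, 20.6, 17.8 and 13.6 CPM with YB-1. Only replicate 3 of the YB-1 group reached the HSP70 range, and the log2 fold change was -0.45 ± 0.16.

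The promoters of Vip and Sst are shown because both genes are textbook targets of cAMP signalling and were the 2 peptide genes whose groups did not overlap. Each line holds the 250 bases before and 50 bases after the gene's start, 5′ to 3′ on the gene's strand, from RefSeq on GRCm38.p6, a build earlier than that of the counts. Capitals mark TGACG on either strand, the core of the cAMP response element; 2 overlapping copies form its full palindrome.
Vip (chr10:5638968-5639267, plus strand): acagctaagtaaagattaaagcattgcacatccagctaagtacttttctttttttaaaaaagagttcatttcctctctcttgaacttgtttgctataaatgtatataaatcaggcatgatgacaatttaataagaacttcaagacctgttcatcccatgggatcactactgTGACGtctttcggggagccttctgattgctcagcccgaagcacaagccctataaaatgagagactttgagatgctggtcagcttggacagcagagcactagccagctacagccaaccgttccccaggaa
Sst (chr16:23890795-23891094, minus strand): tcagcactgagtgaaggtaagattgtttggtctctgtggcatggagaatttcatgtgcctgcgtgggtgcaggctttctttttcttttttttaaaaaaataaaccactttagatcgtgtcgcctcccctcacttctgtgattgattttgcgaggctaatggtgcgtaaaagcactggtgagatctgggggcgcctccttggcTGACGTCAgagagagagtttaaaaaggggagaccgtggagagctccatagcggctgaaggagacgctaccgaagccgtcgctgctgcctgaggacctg
The match in Vip begins 79 bases before the start. Those in Sst begin 48 and 45 bases before it and overlap to form TGACGTCA. TGACG was found in 11 of the 17 neuropeptide genes with a promoter in the table (64.7%) and in 34.8% of the 10688 tested genes with one; over all 32851 promoters of this length it was found in 20.8%. Of lists on the higher side with YB-1, MHC class I presentation had TGACG in 56.25% and interferon-stimulated genes in 23.8%. Reactive astrocyte genes had it in 16.7% and interferon-induced GTPases in 10%. GABAergic markers, on the lower side, had it in 16.7%. A match of these letters is a description of sequence and does not show that a factor was bound. Whether it goes with the direction of a difference was not tested.

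Most other interneuron genes lay on the lower side with YB-1, with groups that overlapped. Of 17 tested markers of GABAergic neurons 14 had a negative log2 fold change; the median was -0.24 and 2 had an unadjusted p under 0.05. Gad1, which encodes the main GABA-synthesising enzyme, was at 251, 155, 159, 138 and 137 CPM with HSP70 and 107, 109, 156, 91.6 and 125 CPM with YB-1. Replicate 1 of the HSP70 group was the highest by far, and the log2 fold change of -0.51 ± 0.18 became -0.33 without it. Dlx1, a transcription factor gene of the interneuron lineage, stood at -0.39 ± 0.18 (log2) and Slc32a1, the vesicular GABA transporter, at -0.28 ± 0.15. Elfn1 was on the higher side, at 0.32 ± 0.22 (0.18 without YB-1 replicate 3). The mean log2 CPM of the list was 4.02, 3.75, 3.68, 3.68 and 3.73 in the HSP70 libraries and 3.29, 3.44, 3.92, 3.49 and 3.70 in the YB-1 libraries. The highest library of each group, HSP70 replicate 1 and YB-1 replicate 3, was also the one with the smallest share of Bc1, 6.03% and 4.74% of its reads, and the part of this in the result was not tested. Without HSP70 replicate 1 the median was -0.11.

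In each interneuron class more markers were lower than higher, by small medians, and each class held some on the higher side. The classes are not independent, because many markers are also in another list. That held for 8 of 13 Vip-class, 8 of 13 Sst-class, 4 of 14 parvalbumin and 5 of 13 Lamp5-class markers, and for 12 of 22 neuropeptide genes. Of 13 Vip-class markers 9 were lower and the median was -0.077 (0.069 without YB-1 replicate 3). Beside Vip and Calb2 the class held Crispld2 at 0.62 ± 0.29 (0.33 without YB-1 replicate 2), Tac2, a tachykinin gene, at 0.30 ± 0.18, and Igfbp6 at 0.23 ± 0.20 (0.083 without YB-1 replicate 2). Among 13 Sst-class markers 8 were lower, with a median of -0.13 (0.025 without YB-1 replicate 2); Npy, the gene of neuropeptide Y, was at -0.47 ± 0.23 (-0.30 without HSP70 replicate 3) and Satb1, a chromatin organiser needed for Sst cells, at -0.28 ± 0.15, while Hpse, which encodes heparanase and is also made by immune cells, was at 1.23 ± 0.48. Of 14 markers of parvalbumin cells 9 were lower, with a median of -0.094. Pvalb itself was at 144, 198, 214, 183 and 176 CPM with HSP70 and 139, 212, 89.7, 174 and 118 CPM with YB-1, overlapping groups, and Kcnc2, a potassium channel gene of fast-spiking cells, was at -0.46 ± 0.25 (-0.19 without HSP70 replicate 1). The 13 Lamp5-class markers were split, 6 higher and 7 lower; Lsp1 and Sv2c were at 0.54 ± 0.20 (0.30 without YB-1 replicate 5) and 0.48 ± 0.23, Kit and Ndnf at -0.39 ± 0.22 and -0.37 ± 0.24. Across 22 neuropeptide genes 16 were lower, with a median of -0.14 (-0.046 without YB-1 replicate 1). Penk, the enkephalin precursor gene, went the other way, with 58.8, 122, 95.6, 77.1 and 52.7 CPM in the HSP70 and 153, 77.8, 118, 195 and 114 CPM in the YB-1 libraries and a log2 fold change of 0.69 ± 0.25. It is also a striatal marker, its highest value belonged to replicate 4 of the YB-1 group, and without that library it was at 0.51.

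**Figure D3:**
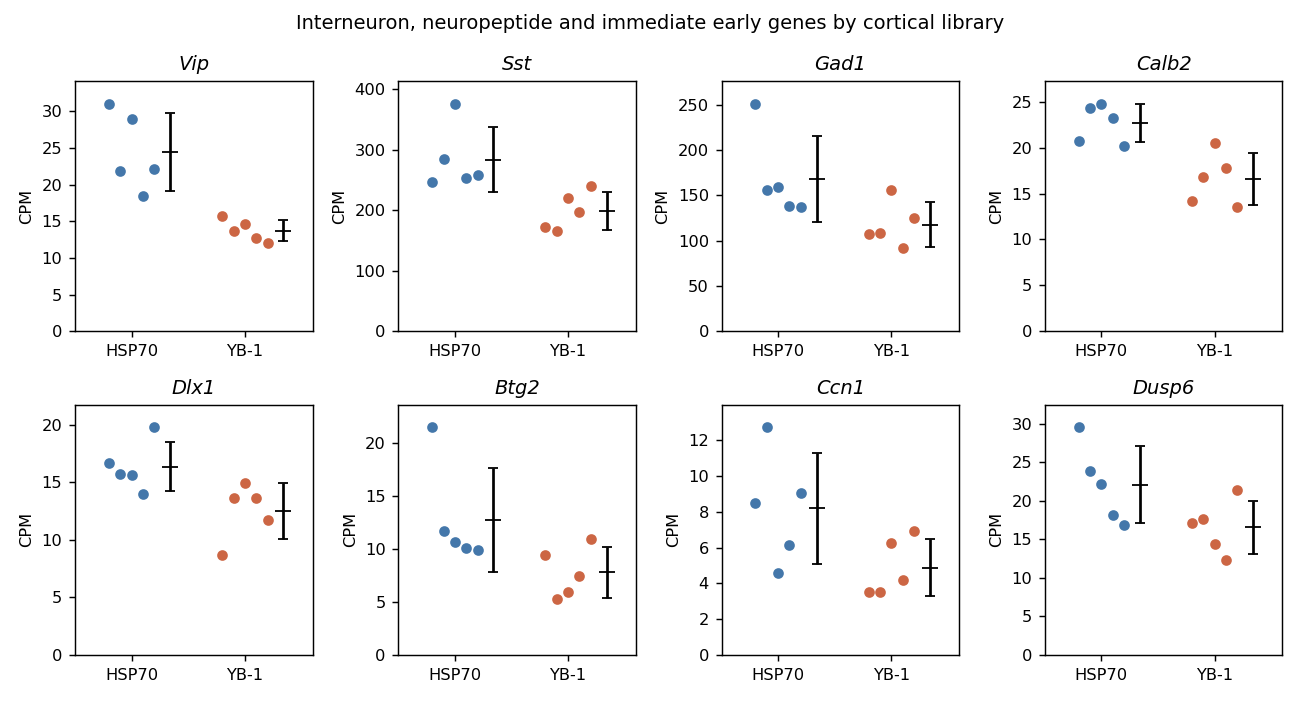
CPM of 5 interneuron genes (Vip, Sst, Gad1, Calb2, Dlx1) and 3 immediate early genes (Btg2, Ccn1, Dusp6) in each cortical library; points are libraries in order of replicate number and the bar is the mean with its SD (n = 5). The groups are apart for Vip, 18.5 to 31.05 against 12.001 to 15.7 CPM, and for Sst, and overlap for the other 6 genes.

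Genes that neurons switch on within minutes of activity, the immediate early genes, lay mostly on the lower side with YB-1. Of 31 such genes 23 had a negative log2 fold change; the median was -0.18 and 3 had an unadjusted p under 0.05. Btg2, an antiproliferative gene, was at 21.5, 11.7, 10.7, 10.1 and 9.96 CPM with HSP70 and 9.49, 5.26, 5.93, 7.45 and 10.99 CPM with YB-1. HSP70 replicate 1 stood well above every other library, and the log2 fold change of -0.70 ± 0.26 became -0.43 without it. Ccn1, which encodes a secreted matrix protein, was at 8.52, 12.7, 4.57, 6.14 and 9.03 and 3.51, 3.51, 6.23, 4.18 and 6.92 CPM, with a log2 fold change of -0.74 ± 0.29. Dusp6, a phosphatase gene that limits ERK signalling, was at -0.41 ± 0.19 (-0.28 without HSP70 replicate 1), Npas4, a transcription factor gene specific to neuronal activity, at -0.73 ± 0.39 (-0.38 without it), and Homer1, a postsynaptic scaffold gene with an activity-induced short form, at -0.36 ± 0.20 (-0.18 without it). Maff, Atf3 and Per1 were on the higher side, at 0.56 ± 0.32 (0.37 without HSP70 replicate 2), 0.56 ± 0.40 (0.33 without YB-1 replicate 5) and 0.25 ± 0.17 (0.086 without YB-1 replicate 2). The list's mean log2 CPM was 4.51, 4.16, 3.95, 3.69 and 3.98 with HSP70 and 3.58, 4.39, 3.77, 3.66 and 3.73 with YB-1. Replicate 2 of the YB-1 group lay within the HSP70 range, far from the other 4 YB-1 libraries, and without it the median was -0.43. Without HSP70 replicate 1, the highest library of all, the median was -0.089. TGACG was found in the promoters of 19 of the 25 immediate early genes with an entry (76%), Btg2 among them.

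Pan-neuronal and synaptic lists had medians close to that of all genes. Of 14 genes of excitatory neurons 9 were lower with YB-1, and their median was more negative than that of any interneuron class. The list of GABAergic markers was lower still, at -0.24. The 15 pan-neuronal genes had a median log2 fold change of -0.082 and a range of -0.30 to 0.14, and 14 genes of excitatory neurons a median of -0.16 (-0.026 without HSP70 replicate 1), with Slc17a7, the main cortical glutamate transporter of vesicles, at 0.35 ± 0.17 (0.23 without HSP70 replicate 1), Slc17a6, its relative, at -0.59 ± 0.27 and Tbr1, a transcription factor of deep-layer neurons, at -0.24 ± 0.13. Synaptic vesicle genes (23, median -0.015) and postsynaptic genes (23, median -0.0064) were evenly divided; Bsn, a presynaptic scaffold, was at 0.35 ± 0.15 and Syt4 at -0.35 ± 0.16. Among layer markers Rspo1 was at 0.45 ± 0.20, Pou3f3 at -0.32 ± 0.15, Crym at 0.42 ± 0.15 and Bcl11b at -0.35 ± 0.16, and the upper and deep layer lists had medians of -0.083 and 0.067. Markers of neighbouring regions varied with single libraries. The 13 striatal markers had a median of 0.33, and -0.0031 without YB-1 replicate 4. Drd2, the dopamine D2 receptor gene, was at 5.18, 6.61, 3.16, 51.1 and 3.51 CPM in the YB-1 libraries and 1.85 to 4.97 CPM with HSP70. Its log2 fold change of 2.14 ± 0.87 became 0.59 without replicate 4, and that of Rgs9, a striatal regulator of G protein signalling, went from 1.497 ± 0.62 to 0.42. Hippocampal markers had a median of 0.16 (0.038 without YB-1 replicate 2), with Fibcd1 at 0.70 ± 0.24 and Lct at 0.78 ± 0.31, thalamic markers one of -0.22 (-0.11 without YB-1 replicate 1) and olfactory bulb markers one of -0.20 (-0.082 without HSP70 replicate 2).

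In the respiratory chain 2 nuclear genes of complex IV were lower with YB-1 in every library, while the tested protein genes of the mitochondrial genome were on the higher side. Complex IV, cytochrome c oxidase, passes electrons to oxygen; its core subunits are encoded by the mitochondrial genome and the others in the nucleus. Cox5a, a nuclear subunit, was at 78.6, 123, 127, 87.4 and 94.4 CPM with HSP70 and 75.9, 66.6, 56.7, 40.2 and 68.6 CPM with YB-1. The lowest HSP70 library lay just above the highest YB-1 library, and the log2 fold change was -0.73 ± 0.18 (adjusted p 0.858 in edgeR's quasi-likelihood test). Cox7a2l, which encodes a factor that joins complex III to complex IV, was at 129, 136, 166, 145 and 152 CPM with HSP70 and 113, 105, 72.8, 101 and 98.4 CPM with YB-1. These groups were also apart, with a log2 fold change of -0.57 ± 0.14 (adjusted p 0.858). Leaving out any 1 library gave -0.81 to -0.61 for Cox5a and -0.63 to -0.48 for Cox7a2l. With the log2 of the library total as a covariate, Cox5a was at -0.041 and Cox7a2l at -0.48. Since depth and treatment run together in these libraries, that fit leaves little to estimate either from.

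The other complex IV genes differed less. Of 21 nuclear genes 15 were lower, with a median of -0.073; Cox6c was at -0.32 ± 0.15, Cox6a1 at -0.22 ± 0.17 (-0.14 without HSP70 replicate 3) and Cox6b1 at -0.20 ± 0.14 (-0.13 without HSP70 replicate 3), and Cox15, an enzyme gene of haem a synthesis, was at 0.37 ± 0.20. Nuclear genes of complex I (36 genes, median -0.027), of complexes II and III (15, median 0.0072) and of ATP synthase (16, median 0.015) lay around 0, with Ndufc1 at -0.33 ± 0.14, Uqcrfs1 at -0.33 ± 0.14, Atp5g2 at 0.55 ± 0.21 and Atp5e at -0.39 ± 0.19. Of the 13 protein genes of the mitochondrial genome only 7 entered the test, so the values below do not cover all of them. All 7 were on the higher side with YB-1, by a median of 0.53, and 5 had an unadjusted p under 0.05. mt-Nd5, a complex I subunit, was at 3059.8, 2286, 2575, 3276 and 4305 CPM with HSP70 and 3759.7, 3215, 6182, 5606 and 6291 CPM with YB-1. YB-1 replicates 3, 4 and 5 exceeded every HSP70 library, replicates 1 and 2 did not, and the log2 fold change was 0.69 ± 0.21. mt-Nd2 was at 0.57 ± 0.18 and mt-Cytb, the complex III subunit, at 0.53 ± 0.19. In all, mitochondrial transcripts took 4.21% to 7.40% of a library with HSP70 and 5.17% to 9.09% with YB-1.

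Genes of microglia and other phagocytes had positive differences in the main, and the groups were apart for a marker of lipid-laden and lysosome-rich phagocytes. Gpnmb (ENSMUSG00000029816), a transmembrane glycoprotein gene of such cells, was at 8.45, 5.46, 6.10, 7.26 and 5.55 CPM with HSP70 and 13.1, 9.03, 12.2, 13.99 and 19.6 CPM with YB-1. The groups did not overlap, at 6.56 ± 1.28 and 13.6 ± 3.84 CPM (mean ± SD, n = 5 each), and the log2 fold change was 1.05 ± 0.22 (95% confidence interval 0.58 to 1.51). Its adjusted p was 0.597 in edgeR's quasi-likelihood test and 0.0217 in DESeq2, and leaving out any 1 library gave 0.88 to 1.16. Axl, a receptor for the debris of dying cells, was at 86.9, 95.3, 109, 108 and 98.2 CPM with HSP70 and 116, 119, 119.8, 113 and 153 CPM with YB-1, again apart, with a log2 fold change of 0.32 ± 0.13. Lgals3, the galectin-3 gene, was at 4.05, 1.39, 5.30, 5.54 and 5.76 and 9.13, 8.49, 5.54, 5.82 and 15.5 CPM and at 1.02 ± 0.34 (log2). Of 22 tested genes of activated phagocytes 17 were higher, by a median of 0.31, which was 0.092 without YB-1 replicate 5.

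Resting microglia and cells of the brain's borders gave smaller or opposite values. Of 21 genes of resting microglia 17 were higher by a median of 0.22 (0.024 without YB-1 replicate 5). Csf1r, the receptor on which microglia depend for survival, was at 283 to 472 CPM with HSP70 and 391 to 581 CPM with YB-1 (log2 fold change 0.35 ± 0.16). Tyrobp, a signalling adaptor gene, was at 0.43 ± 0.19 and its partner Trem2 at 0.41 ± 0.20 (0.24 without YB-1 replicate 5). Hcar2, which encodes the niacin receptor and is carried by microglia, was at 3.09, 2.93, 3.98, 2.84 and 1.85 CPM with HSP70 and 11.9, 5.66, 6.43, 2.73 and 10.6 CPM with YB-1. Replicate 4 of the YB-1 group alone fell within the HSP70 range, and the log2 fold change was 1.36 ± 0.33. Tlr9, a sensor of foreign DNA, was at 0.95 ± 0.25 and Ptpn6, a phosphatase gene of blood and immune cells, at 0.76 ± 0.21. Among 9 tested of 15 border macrophage markers 5 were lower and 4 higher, with a median of -0.14 (0.17 without HSP70 replicate 5); Mrc1, the mannose receptor gene, was at 3.71, 1.87, 2.32, 3.29 and 3.20 and 1.76, 0.674, 1.58, 0.727 and 2.31 CPM and at -0.97 ± 0.37 (log2). Of 22 genes of neutrophils and monocytes 9 entered the test and 8 were higher, with a median of 0.71 (0.29 without YB-1 replicate 5). Ltf (lactoferrin) and Ngp (neutrophilic granule protein) were at 2.10 ± 0.63 and 2.22 ± 0.78, but rested on replicate 2 of the YB-1 group, with 24, 129, 25, 17 and 6 reads of Ngp in the YB-1 libraries, and were at 1.09 and 0.90 without it. S100a8 and S100a9, the defining neutrophil genes, had too few reads to be tested.

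Within the interleukin-1 system the natural antagonist stood out. Il1rn (ENSMUSG00000026981) encodes the secreted interleukin-1 receptor antagonist, which occupies the receptor without activating it. It was rare, with 19, 1, 8, 8 and 3 reads in HSP70 replicates 1 to 5 and 31, 26, 30, 7 and 55 reads in YB-1 replicates 1 to 5, although the YB-1 libraries were the shallower ones. At 1.31, 0.0815, 0.530, 0.599 and 0.213 CPM with HSP70 and 2.72, 3.51, 2.97, 1.27 and 5.08 CPM with YB-1, the lowest YB-1 library lay within the HSP70 range. The log2 fold change was 2.49 ± 0.52 (95% confidence interval 1.40 to 3.58), with an adjusted p of 0.597 in edgeR's quasi-likelihood test, 0.0137 in DESeq2 and 0.0267 in limma-voom; at equal depth it had too few reads to be tested. Irak1bp1, which encodes a binding partner of the receptor-associated kinase IRAK1, was at 10.6, 4.81, 7.29, 5.39 and 6.33 CPM with HSP70 and 4.04, 2.16, 3.26, 2.54 and 3.78 CPM with YB-1, lower in every YB-1 library, at -1.10 ± 0.27 (log2). Pycard, the inflammasome adaptor gene, was at 0.80 ± 0.25, Il18bp, a decoy for interleukin-18, at 0.72 ± 0.30, Casp1, the protease that matures interleukin-1β, at 0.54 ± 0.28 (0.35 without YB-1 replicate 5), and Nlrp3, an inflammasome sensor, at 0.67 ± 0.40 (0.20 without YB-1 replicate 5). Of 19 tested members of this list 12 were higher and 7 lower, with a median of 0.15 (0.092 without YB-1 replicate 1). Il1b was not among the genes tested.

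**Figure D4:**
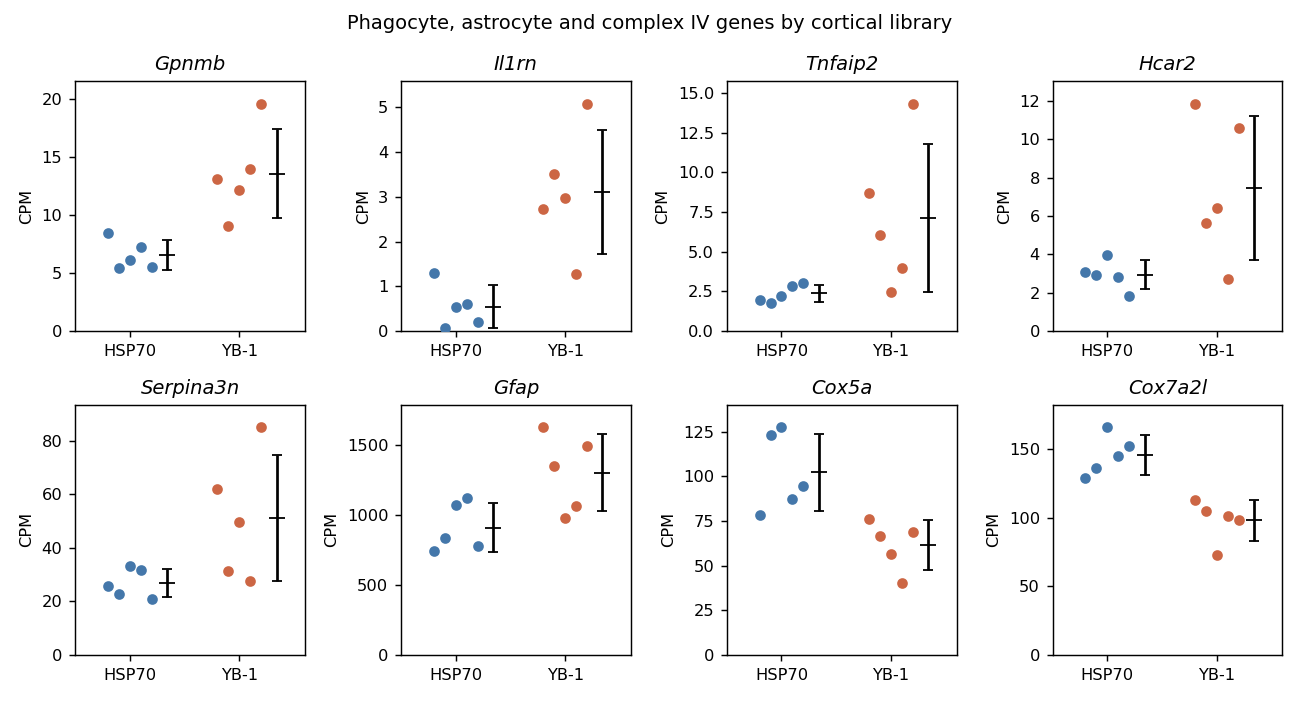
CPM of phagocyte genes (Gpnmb, Il1rn, Tnfaip2, Hcar2), astrocyte genes (Serpina3n, Gfap) and complex IV genes (Cox5a, Cox7a2l) in each cortical library; points are libraries in order of replicate number and the bar is the mean with its SD (n = 5). Gpnmb lies between 5.46 and 8.45 CPM in the HSP70 and between 9.03 and 19.6 CPM in the YB-1 libraries; Cox5a and Cox7a2l lie lower in every YB-1 library, and the groups of the other 5 genes overlap.

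Genes of reactive astrocytes were nearly all on the higher side with YB-1. Of 28 tested 25 were higher, by a median of 0.46, 7 of them with an unadjusted p under 0.05. Some of these genes are also made by microglia or vessels. Of the 28, 9 are also in other lists. Among these, Gbp2 and Iigp1 are also counted as interferon-induced GTPases, Psmb8 under MHC class I presentation, and C3 and Serping1 under complement. Gfap, the intermediate filament that defines astrocytes in sections, was at 742, 836, 1070.1, 1117 and 777 CPM with HSP70 and 1624, 1349, 979, 1062 and 1491 CPM with YB-1. YB-1 replicates 1, 2 and 5 lay above all HSP70 libraries and replicates 3 and 4 among them, and the log2 fold change was 0.52 ± 0.17. Serpina3n, a secreted protease inhibitor and a sensitive marker of astrocyte reactivity, was at 25.7, 22.8, 33.1, 31.7 and 21.05 and 62.004, 31.4, 49.5, 27.4 and 84.9 CPM and at 0.93 ± 0.26 (log2); Serpina3h, a close relative whose reads may be shared with it, was at 0.95 ± 0.27. Vim, another intermediate filament gene, was at 0.61 ± 0.23 and 0.32 without YB-1 replicate 5, Osmr, the oncostatin M receptor, at 0.67 ± 0.24, and Lcn2, the iron-siderophore carrier lipocalin-2, at 1.43 ± 0.59 (0.95 without YB-1 replicate 5). Hspb1, a small heat shock protein gene of the same list, was on the lower side at -0.54 ± 0.22. Genes of resting astrocytes did not share this: 13 of 18 were lower, with a median of -0.058, Kcnj10 at 0.29 ± 0.15 and Gjb6 at -0.27 ± 0.15 (-0.14 without HSP70 replicate 5). At equal depth the reactive list had a median of 0.45, and without YB-1 replicate 5 one of 0.26.

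Genes induced by interferons were higher in 3 of the 5 YB-1 libraries than in any HSP70 library, and not in the other 2. The median log2 fold change of 31 interferon-stimulated genes was 0.44; 30 of them were above 0 and 7 had an unadjusted p under 0.05. Their mean log2 CPM was 3.91, 3.17, 3.70, 3.68 and 3.06 with HSP70 and 4.27, 4.21, 3.19, 2.91 and 4.70 with YB-1. Replicates 1, 2 and 5 of the YB-1 group exceeded every HSP70 library, and replicates 3 and 4 lay among the lowest. Stat2, which carries the type I interferon signal to the nucleus, was at 27.96, 17.5, 26.05, 25.1 and 17.8 CPM with HSP70 and 38.03, 36.7, 24.9, 21.8 and 47.4 CPM with YB-1 (log2 fold change 0.56 ± 0.21). Ifitm3, a membrane protein gene that blocks viral entry, was at 0.55 ± 0.21, and Lgals3bp at 0.52 ± 0.19. Oasl1, a regulator of the antiviral response that is not in the list, was at 1.37 ± 0.39. The interferon-induced GTPases, which attack the vacuoles of intracellular microbes, showed 14 of 15 members higher by a median of 0.70. Gbp5 was at 26.2, 14.2, 22.9, 19.98 and 17.3 and 31.4, 26.97, 28.7, 16.5 and 63.7 CPM, at 0.74 ± 0.28 (log2) and at 0.37 without YB-1 replicate 5, Irgm1 at 0.88 ± 0.36 (0.58 without YB-1 replicate 5) and Tgtp2, which has a near-identical copy, at 0.94 ± 0.40 (0.50 without YB-1 replicate 5). Without YB-1 replicate 5 the medians were 0.23 and 0.38.

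Promoters of Stat2 and Gbp5 are printed because the 2 lists were high and low in the same libraries. They span 250 bases before to 50 after the start, from RefSeq on GRCm38.p6, and capitals mark, on either strand, GAAA followed after any 2 bases by a second GAAA, the core of the interferon-stimulated response element.
Stat2 (chr10:128270248-128270547, plus strand): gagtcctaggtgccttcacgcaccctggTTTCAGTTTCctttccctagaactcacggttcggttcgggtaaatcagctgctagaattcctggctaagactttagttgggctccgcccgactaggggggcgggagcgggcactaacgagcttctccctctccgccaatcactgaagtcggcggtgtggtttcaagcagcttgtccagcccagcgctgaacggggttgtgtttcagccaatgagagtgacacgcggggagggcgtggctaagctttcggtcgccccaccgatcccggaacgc
Gbp5 (chr3:142496684-142496983, plus strand): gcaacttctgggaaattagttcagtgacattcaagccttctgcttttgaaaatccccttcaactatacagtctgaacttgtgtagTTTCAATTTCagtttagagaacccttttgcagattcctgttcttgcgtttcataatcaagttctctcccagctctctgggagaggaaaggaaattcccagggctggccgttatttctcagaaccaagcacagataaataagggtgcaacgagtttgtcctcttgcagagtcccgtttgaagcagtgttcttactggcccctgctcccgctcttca
The match begins 222 bases before the start in Stat2 and 165 bases before it in Gbp5. This motif was found in 13 of the 21 interferon-stimulated genes with an entry (61.9%) and in 9 of 10 interferon-induced GTPases (90%), against 3.70% of the tested genes with an entry and 3.44% of all promoters of this length. Both lists are made of interferon-induced genes, so these shares describe their membership and are no result of these libraries. The motif was also in 31.25% of MHC class I and 20.8% of reactive astrocyte genes. Among lists on the lower side it was in 16% of immediate early genes, 11.8% of neuropeptide genes and 0% of GABAergic markers. A match does not show that a factor was bound.

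Antigen presentation genes also lay on the higher side. For MHC class I presentation 17 of 18 genes were higher by a median of 0.43, and 7 had an unadjusted p under 0.05. Tap1, a subunit of the peptide transporter, was at 82.4, 72.9, 99.1, 101 and 66.1 CPM with HSP70 and 207, 218, 65.9, 85.97 and 197 CPM with YB-1 (log2 fold change 0.88 ± 0.31), again with YB-1 replicates 1, 2 and 5 above all others. H2-T22, whose near-identical relatives may share its reads, was at 0.89 ± 0.28. Class II presentation had 10 of 11 genes higher and a median of 0.64 (0.32 without YB-1 replicate 5), with the peptide exchange genes H2-DMa and H2-DMb2 at 0.72 ± 0.25 and 0.84 ± 0.34 and their regulator Ciita at 0.88 ± 0.42 (0.43 without YB-1 replicate 5). The mean log2 CPM of the class II list was 6.42, 5.70, 6.91, 6.08 and 5.49 with HSP70 and 6.69, 6.66, 5.98, 5.85 and 7.40 with YB-1, so that only YB-1 replicate 5 exceeded every HSP70 library. MHC genes are polymorphic in outbred mice, and whether haplotypes bear on these counts was not tested. Lymphocyte genes were low but also on the higher side. Cd4 was at 4.12, 3.67, 4.24, 4.04 and 5.90 CPM with HSP70 and 5.09, 7.82, 5.74, 12.5 and 16.5 CPM with YB-1 (log2 fold change 1.11 ± 0.30), Il2rb, an interleukin-2 receptor chain, at 1.03 ± 0.30 and Lck, the kinase of the T cell receptor, at 0.88 ± 0.33 (0.59 without YB-1 replicate 5); 12 of 15 T and NK cell genes were higher by a median of 0.41 (0.11 without YB-1 replicate 5). Cd4 did not follow this list in YB-1 replicate 4, where the list's mean log2 CPM, 1.77, was the lowest of the YB-1 group. The immunoglobulin segment Igkv12-38 had 4, 0, 15, 2 and 1 reads in the HSP70 libraries and 65, 22, 28, 12 and 42 in the YB-1 libraries, did not overlap between groups, and had the smallest adjusted p of edgeR's test, 0.25, at 3.47 ± 0.60 (log2). Igkv5-39 was at 1.68 ± 0.42. Immunoglobulin genes together took 0.066% to 0.663% of reads with HSP70 and 0.199% to 0.858% with YB-1, ranges that overlap, and reads of related segments cannot be told apart with certainty.

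**Figure D5:**
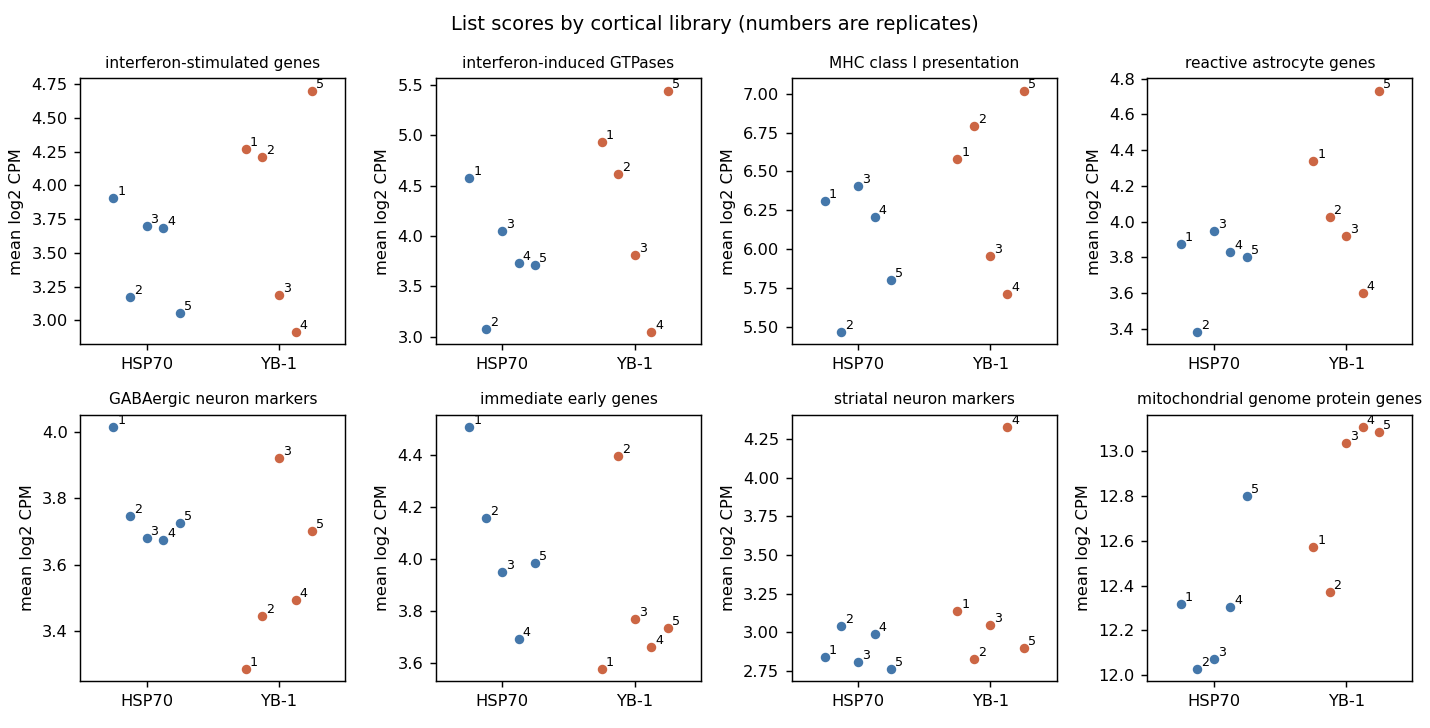
Mean log2 CPM of 8 gene lists in each cortical library, with the replicate number beside each point; axes do not start at 0. YB-1 replicates 1, 2 and 5 are the highest libraries for interferon-stimulated genes, at 4.27, 4.21 and 4.70, and YB-1 replicate 4 is the highest for striatal markers, at 4.33.

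Complement, chemokine and NF-κB genes gave positive medians with wide spreads. Of 18 complement genes 13 were higher by a median of 0.42 (0.15 without YB-1 replicate 5): Serping1, the C1 inhibitor gene, was at 35.6, 20.9, 36.1, 34.6 and 33.99 and 59.98, 42.9, 36.6, 33.6 and 80.5 CPM (log2 fold change 0.66 ± 0.22, 0.43 without YB-1 replicate 5), C4b at 0.60 ± 0.21 and C3ar1, the C3a receptor gene, at 0.82 ± 0.31 (0.54 without YB-1 replicate 5). Cd55, which encodes a membrane inhibitor of complement and was picked after its values were seen, was lower in every YB-1 library, at 2.20, 1.96, 1.86, 1.65 and 2.35 CPM with HSP70 and 1.32, 0.944, 1.48, 0.182 and 1.29 CPM with YB-1 (log2 fold change -0.87 ± 0.39). Of 16 tested chemokine genes 12 were higher, by a median of 0.35 that was 0.093 without YB-1 replicate 5; the monocyte attractants Ccl12 and Ccl2 were at 1.14 ± 0.47 and 1.38 ± 0.58 (0.76 without YB-1 replicate 5), the latter from 14, 6, 14, 11 and 7 reads with HSP70 and 12, 16, 17, 0 and 49 with YB-1. Among 26 NF-κB members and targets 19 were higher by a median of 0.29 (0.089 without YB-1 replicate 5). Tnfaip2, a gene induced by tumour necrosis factor, was at 1.99, 1.79, 2.19, 2.84 and 3.06 CPM with HSP70 and 8.69, 6.07, 2.47, 3.999 and 14.3 CPM with YB-1 (log2 fold change 1.59 ± 0.38), Relb, a subunit of the alternative pathway, at 0.66 ± 0.21, and Tnfrsf1b, a tumour necrosis factor receptor gene, at 0.61 ± 0.19. The 2 checks on depth gave different values for the glial and immune lists. At equal depth the medians of the reactive astrocyte, interferon and GTPase lists were 0.45, 0.46 and 0.72, and with the log2 library total as a covariate they were 1.04, 1.06 and 1.74.

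Endothelial and meningeal lists had medians close to that of all genes, and mural, myelin and oligodendrocyte precursor lists had small positive ones. Ependymal genes were on the higher side and red blood cell genes on the lower side. Vwf, the von Willebrand factor gene of endothelium, was at 35.5, 29.8, 36.3, 49.6 and 71.5 CPM with HSP70 and 74.7, 79.8, 86.7, 68.7 and 73.3 CPM with YB-1; only HSP70 replicate 5 reached the YB-1 range, and the log2 fold change was 0.78 ± 0.20. Ly6a, an interferon-inducible surface gene of endothelium, was at 0.52 ± 0.22, while the 20 endothelial markers had a median of -0.015. Mural cell markers had a median of 0.11 (0.04 without YB-1 replicate 3) and meningeal fibroblast markers one of -0.058, with Dcn (decorin) at 0.45 ± 0.19. The 7 ependymal cilia genes tested were all higher, by a median of 0.55 (0.37 without HSP70 replicate 1), none with an unadjusted p under 0.05; Foxj1, the regulator of motile cilia, was at 0.47 ± 0.28 (0.30 without HSP70 replicate 1). Choroid plexus markers had a median of -0.28, which was 0.43 without HSP70 replicate 4, and Folr1 was at -1.68 ± 0.82 (-0.41 without that library). The 7 red blood cell genes tested were all lower, with a median of -0.40 (-0.81 without YB-1 replicate 2 and -0.21 without HSP70 replicate 2), the globin gene Hbb-bs at -0.65 ± 0.58 (-0.22 without HSP70 replicate 2). Myelin genes had a median of 0.13 (0.067 without HSP70 replicate 1); Ugt8a, the enzyme gene for the myelin lipid galactosylceramide, was lower in every YB-1 library, at 8.72, 7.01, 7.62, 6.21 and 5.69 against 4.48, 3.91, 5.34, 3.82 and 5.63 CPM and -0.59 ± 0.22 (log2). Oligodendrocyte precursor genes had a median of 0.18 (0.11 without HSP70 replicate 1), with Enpp6, a gene of newly forming oligodendrocytes, at 0.98 ± 0.37 and Sox10 at 0.47 ± 0.23 (0.30 without HSP70 replicate 1). Of 17 precursor genes 12 were higher. Their mean log2 CPM, in which each gene counts equally, was 4.15 to 4.43 with HSP70 and 4.42 to 4.58 with YB-1, ranges that barely overlap. Their summed CPM did not differ in this way, at 989 to 1245 (median 1156) with HSP70 and 1033 to 1245 (median 1154) with YB-1.

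The mouse genes for the delivered proteins and their relatives showed small differences. Hspa1b, an inducible HSP70 gene nearly identical to Hspa1a (log2 fold change -0.23 ± 0.33, -0.035 without YB-1 replicate 5), was at 13.4, 19.9, 12.8, 12.3 and 10.5 CPM with HSP70 and 10.1, 13.2, 11.96, 8.72 and 10.2 CPM with YB-1 (log2 fold change -0.34 ± 0.20, -0.17 without HSP70 replicate 2). Ybx1, the gene of mouse YB-1, was at 122, 84.8, 113, 113 and 118 and 112, 94.2, 162, 136 and 150.4 CPM (log2 fold change 0.25 ± 0.16, 0.16 without YB-1 replicate 3), and in both cases the groups overlapped. Of 35 heat shock proteins and co-chaperones 23 were lower, with a median of -0.12 (-0.047 without HSP70 replicate 1). Chordc1, an HSP90 co-chaperone gene, was at 17.8, 14.02, 13.3, 11.1 and 11.4 CPM with HSP70 and 10.5, 9.57, 10.1, 4.91 and 10.6 CPM with YB-1, lower in every YB-1 library, at -0.55 ± 0.22 (log2). Dnaja1, an HSP40 gene, was at -0.42 ± 0.18 and -0.24 without HSP70 replicate 1. Of 28 cold shock and RNA granule genes 18 were lower, with a median of -0.12 (0.027 without HSP70 replicate 1), none with an unadjusted p under 0.05, and the 24 genes of the unfolded protein response had a median of -0.03. Proteasome subunits (31 genes, median 0.01, Psmb2 at 0.33 ± 0.14) were near the background. Of 51 cytosolic ribosomal protein genes 38 were higher, beside 50.9% of all genes. Their median was small and positive, at 0.10 (0.045 without HSP70 replicate 1), with Rpl30 at 0.77 ± 0.26.

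Genes tied to the disease model and to hormones and metabolism gave medians near 0 with a few larger members. The 33 genes of amyloid, tau and Alzheimer's disease risk had a median of 0.031; the 2 with an unadjusted p under 0.05 were the microglial signalling genes Plcg2, at 0.49 ± 0.21 (0.27 without YB-1 replicate 5), and Inpp5d, at 0.35 ± 0.15. Among glucocorticoid-responsive genes Tsc22d3, which encodes the glucocorticoid-induced leucine zipper, was at 41.1, 27.4, 36.6, 33.4 and 31.6 CPM with HSP70 and 20.6, 25.8, 32.5, 18.9 and 18.001 CPM with YB-1. Only replicate 3 of the YB-1 group was inside the HSP70 range, and the log2 fold change was -0.55 ± 0.18. Sgk1, a kinase gene induced by glucocorticoids, was at -0.31 ± 0.14 and Fkbp5, another target, at 0.16 ± 0.16 (0.018 without YB-1 replicate 3); the median of the 17 genes was 0.025. Circadian clock genes had a median of -0.0039, cholesterol synthesis genes one of -0.066, cell cycle genes one of -0.063 and neurotrophin genes and receptors one of 0.053, with Ntf3 at 0.83 ± 0.40.

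Several genes outside these lists were lower in every YB-1 library. Camk2n1, which encodes an inhibitor of the calcium-dependent kinase CaMKII, was at 2882, 2514, 3471, 2859.9 and 3111 CPM with HSP70 and 2209.9, 1915, 2281, 2051 and 1923 CPM with YB-1, at -0.52 ± 0.13 (log2). Rassf3, a gene of the Ras-association family, was at 36.4, 21.2, 26.2, 24.9 and 21.2 and 15.8, 11.6, 17.996, 11.6 and 18.3 CPM (-0.78 ± 0.19). Lrrc55, an auxiliary subunit gene of the large-conductance potassium channel, was at 7.87 ± 1.40 and 4.42 ± 0.652 CPM with HSP70 and YB-1 (mean ± SD, n = 5 each) and at -0.83 ± 0.22 (log2). Car8, a carbonic anhydrase-related gene that binds the inositol trisphosphate receptor, was at 5.54 ± 1.18 and 2.81 ± 0.911 CPM, Klhl28 at 3.92 ± 1.29 and 1.76 ± 0.422 CPM, Perp, a target of p53, at 4.67 ± 0.944 and 2.37 ± 0.611 CPM and Krt12, a keratin gene, at 11.7 ± 1.70 and 7.31 ± 0.536 CPM, with log2 fold changes of -0.97 ± 0.27, -1.14 ± 0.32, -0.95 ± 0.27 and -0.68 ± 0.18. 1700101I11Rik had 19, 26, 17, 25 and 21 reads in the HSP70 libraries and 5, 2, 5, 0 and 5 in the YB-1 libraries (-2.09 ± 0.48), and 1700016P03Rik was at -1.20 ± 0.31. Ubl3 and Esco1 were at -0.74 ± 0.19 and -1.67 ± 0.42 with overlapping groups. On the higher side Tvp23a was at 18.2, 23.96, 25.1, 25.4 and 19.1 CPM with HSP70 and 31.002, 36.9, 27.5, 41.6 and 29.9 CPM with YB-1, apart, at 0.58 ± 0.16 (log2), and Gm13456 was at 1.31 ± 0.34. The adjusted p of all of these was 0.858 in edgeR's quasi-likelihood test.

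Whether the cortical values differ from those of the hippocampus was tested by the interaction of treatment and tissue. It called 0 of 14616 genes at an adjusted p under 0.05 in edgeR's quasi-likelihood test, with 227 (1.55%) at an unadjusted p under 0.05. With the replicate number as a block it called 0, with 409 (2.80%), and DESeq2 called 0, with 276 (1.89%). Unadjusted interaction p-values of single genes are from the first of these fits, stand beside its share of 1.55% and show no difference between the tissues. The hippocampal comparison alone called 0 of 13723 genes, with 329 (2.40%) at an unadjusted p under 0.05, and those libraries overlapped in depth. The smallest interaction p belonged to Zfp811, a zinc finger gene, at -0.50 ± 0.35 (-0.19 without HSP70 replicate 1) in the cortex and 1.43 ± 0.34 in the hippocampus, Perp at -0.95 ± 0.27 and 0.79 ± 0.35, Gm13456 at 1.31 ± 0.34 and -0.46 ± 0.35, Krt2, which was too low for the cortical test alone, and Cpne2 at 0.46 ± 0.19 and -0.41 ± 0.18; the adjusted p of each was 0.9999. Vip was at -0.83 ± 0.18 in the cortex and -0.10 ± 0.33 in the hippocampus, an interaction of -0.73 ± 0.36 with an unadjusted p of 0.0566. Cox7a2l was at -0.57 ± 0.14 and 0.091 ± 0.16 (unadjusted interaction p 0.00492) and Cox5a at -0.73 ± 0.18 and -0.17 ± 0.17 (0.0423). Sst was at -0.51 ± 0.15 in the cortex and -0.46 ± 0.17 in the hippocampus, and Il1rn at 2.49 ± 0.52 and 2.51 ± 0.93. Gpnmb was at 1.05 ± 0.22 and 0.72 ± 0.34, and Gfap at 0.52 ± 0.17 and 0.11 ± 0.17 (unadjusted interaction p 0.108). List medians in the hippocampus, set beside those of the cortex, were 0.66 and 0.44 for interferon-stimulated genes, 0.26 and 0.46 for reactive astrocyte genes, -0.16 and -0.24 for GABAergic markers, -0.022 and -0.18 for immediate early genes, -0.25 and 0.13 for myelin genes and -0.41 and -0.058 for meningeal markers. Same-numbered libraries of the tissues deviated together, and the differences between these medians were not tested.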

How the data were processed

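Total RNA from the cortex or hippocampus was sequenced as single-end reads from directional poly(A) libraries made, per the labels' protocols, from RNA whose integrity number reached 8 or more. The authors deposited raw read counts per gene; Trimmomatic, STAR, featureCounts and the build GRCm39 are named in the submitters' processing notes. The release of the gene annotation, the tools' versions and whether strand was used in counting were not given in the sources used here, so reads of antisense or overlapping genes may be shared. The deposited counts of 20 libraries, each with 55487 gene identifiers, were used as they stand, without summary entries. In the cortex reads outside genes were 2.45% to 4.58% and ambiguous reads 4.12% to 4.58% of all counted reads. Symbols from GENCODE M21 matched 99.4% of identifiers. No 2 libraries of a cortical group agreed within sampling noise.

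The cortical groups (5 libraries each) were compared with edgeR 4.0.16 in R 4.3.3 (TMM scaling, filterByExpr, robust quasi-likelihood test, Benjamini-Hochberg adjustment over 14114 genes, threshold 0.05), with DESeq2 1.42.0 and limma 3.58.1 as alternatives; scripts were tested on simulated data. CPM use TMM-scaled totals, and list means use log2 CPM with a prior count of 2. The 57 lists and their members were chosen with earlier results of these data known, so their values support no test. Some genes are in more than 1 list, so the lists are not independent of each other. Genes named are those of the delivered proteins, the 15 smallest p in each direction, the 3 smallest of each list, the 5 smallest interaction p, and any tested member of the interneuron, reactive astrocyte, interleukin-1, complex IV and immediate early lists; only some of these are described, a few are not reported here, and Bc1 and Cd55 were singled out after their values were seen. Same-numbered cortical and hippocampal libraries deviated together (correlation 0.198 to 0.624 in all 10 pairs), and the replicate number was taken to pair the tissues. The labels do not state this pairing, and whether a library matched its own number better than the others was not tested. Other scalings, filters, equal depth, depth as a covariate, omission of Bc1, immunoglobulin and mitochondrial genes, a replicate block and leaving out each library were tried.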

Additional observations from a re-analysis of the deposited data

Results flagged for a closer look

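In 404 groups of 5 libraries, made of the genes named and of the list means, the highest or lowest library was tested for standing apart (gap to its neighbour over the whole range above 0.71). In independent groups with a normal spread chance flags about 1 group in 20. Here 28 (6.93%) were flagged. These genes and lists share the same libraries and many genes were picked by their p-values, so that rate is no reference for this share. HSP70 replicate 1 stood apart in the mean log2 CPM of GABAergic markers (4.02) and postsynaptic genes (6.999), and in the CPM of Gad1 (251), Btg2 (21.5), Dnaja1 (76.4), Kcnc2 (36.3), Zfp811 (4.81) and, on the low side, Fibcd1 (11.6). YB-1 replicate 4 stood apart in striatal markers (4.33 log2 CPM), Drd2 (51.1 CPM), Rgs9 (36.7 CPM), Atp5g2 (66.0 CPM) and, low, Chordc1 (4.91 CPM).

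YB-1 replicate 2 was high in immediate early genes (4.39 log2 CPM), Ltf (7.55 CPM), Ngp (17.4 CPM) and Hbb-bs (262 CPM). YB-1 replicate 5 was high in Axl (153 CPM) and Nlrp3 (4.52 CPM), and YB-1 replicate 3 in Zfp811 (2.87 CPM). HSP70 replicate 2 was low in reactive astrocyte genes (3.38 log2 CPM), Serping1 (20.9 CPM) and Ybx1 (84.8 CPM). HSP70 replicate 5 was high in Cd4 (5.90 CPM), Gjb6 (100.4 CPM) and mt-Nd2 (6541 CPM), HSP70 replicate 3 in Igkv12-38 (0.994 CPM) and HSP70 replicate 4 in Folr1 (11.7 CPM).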

How the results depend on the processing

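No cortical gene passed an adjusted p of 0.05 in edgeR under other scalings, a minimum of 5 CPM, equal depth, depth as a covariate or the replicate block. DESeq2 called 4 genes, limma-voom 2 and edgeR without a filter on low counts 9, namely Il1rn, Igkv12-38, Gpnmb, Vip, Cox5a, Hcar2, Tnfaip2, Ubl3 and Vwf, with 2054 at an unadjusted p under 0.05; that setting tests more genes, and the cause of the added calls was not tested. Leaving out 1 cortical library gave 0 to 1 called gene (Igkv12-38 without HSP70 replicate 3) and 561 to 1155 at an unadjusted p under 0.05; the hippocampal count ran from 209 to 539. Replicate numbers do not pair the cortical groups (correlations -0.15 to 0.17; 1 of 5 matched its own number best); with the replicate block 0 genes passed and 858 had an unadjusted p under 0.05, 379 higher and 479 lower. With depth as a covariate 513 were higher and 163 lower.

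The covariate moved the medians of many lists, and the cause was not tested: to 1.04 for reactive astrocyte, 1.06 for interferon-stimulated, 1.74 for interferon-induced GTPase, 1.44 for MHC class II, 1.06 for complement, 0.83 for interleukin-1, 1.24 for chemokine, 1.13 for T and NK cell, 1.28 for B cell, 1.26 for neutrophil, 0.63 for resting microglia, 0.29 for endothelial, 0.20 for unfolded protein response and 0.13 for Alzheimer risk genes. It gave -0.97 for striatal, 0.12 for thalamic, -0.36 for Vip-class, 0.15 for Sst-class, -0.22 for parvalbumin, -0.46 for neuropeptide, -0.11 for synaptic vesicle, -0.21 for upper-layer and -0.14 for deep-layer genes. For complex I it gave -0.32, for complexes II and III -0.17, for ATP synthase -0.33, for the proteasome -0.18, for cholesterol synthesis -0.25, for the clock -0.14, for glucocorticoid-responsive genes -0.31 and for myelin -0.071. Under limma-voom the deep-layer median was -0.025 and the myelin median 0.014. Leaving out 1 library gave -0.055 to 0.10 for deep-layer, -0.12 to 0.034 for parvalbumin, -0.17 to -0.028 for resting astrocyte, 0.29 to 0.90 for neutrophil, 0.038 to 0.39 for hippocampal and -0.11 to 0.027 for cholesterol synthesis genes. Of the 57 list medians 31 changed sign under at least 1 of the 20 other settings. Leaving out 1 library moved the log2 fold change of 48 of 145 genes by more than 1.5-fold. Among the 145 genes, 8 changed sign. With the covariate these were Drd2 (-1.54), Rgs9 (-0.97), Per1 (-0.24), Igfbp6 (-0.12), Tac2 (-0.0095), Cox6c (0.082) and Cd55 (0.27). Without YB-1 replicate 1 it was Lamp5 (0.0042). Depth limits the rare genes: Il1rn and Igkv12-38 rest on at most 65 reads a library.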

Other observations

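The first principal component of the cortical libraries held 33.4% of the variance and did not separate the treatments: YB-1 replicate 4 lay at one end (65.2) and HSP70 replicate 1 at the other (-49.1). The B and plasma cell genes had a median log2 fold change of 0.29, which was -0.023 without YB-1 replicate 5.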
